A study of Caenorhabditis elegans with 14 samples.

Results

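The 10 genes described here, *unc-54*, *myo-3*, *unc-15*, *unc-89*, *act-4*, *lev-11*, *mup-2*, *unc-27*, *unc-22* and *ttn-1*, code the filament proteins of the body wall muscle of *C. elegans*. They were chosen by name as thick filament, thin filament and giant filament-linking genes, with earlier results of these data known. All 10 were measured in both strains, among 12483 genes listed for either. Body wall muscle is the striated muscle with which the worm crawls and thrashes. Its thick filaments are built of myosin around a paramyosin core and are held in register at the M-line, its thin filaments are built of actin, tropomyosin and troponin and are anchored at dense bodies, and giant proteins of the titin family link and regulate both. The tissue matters here because the polyQ35-YFP protein is made in it.

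Whole hermaphrodite worms were collected on day 6 of adulthood after culture at 20 °C on HT115 bacteria carrying an empty vector (EV) or a construct against *anc-1* (*anc-1* RNAi). Wild-type (N2) worms gave 3 EV and 3 *anc-1* RNAi samples, and worms of strain AM140, which carry 35 glutamine repeats fused to YFP under the *unc-54* promoter (polyQ35-YFP), gave 4 and 4. The transgene is thus driven by the promoter of one of the 10 genes, and the strain was compared with N2 and not with a strain that makes YFP alone. *anc-1* codes a giant protein of the outer nuclear membrane that ties the nucleus to actin. RNA came from whole worms, so the values average muscle with every other tissue. A change of RNA within muscle and a change in the share of muscle in the worm's RNA cannot be told apart.

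RNA was read at the 3′ ends of transcripts with CEL-Seq2, and the values are reads divided by a size factor for each sample, set separately for each strain. Reads on listed genes numbered 4934531 to 10513485 in the wild-type samples and 5718349 to 11563506 in the polyQ35-YFP samples. The target *anc-1* fell by 2.64 on the log2 scale in N2 (limma adjusted p = 2.99e-07) and fell by 3.24 in AM140 (limma adjusted p = 4.80e-05). The *anc-1* RNAi and EV samples did not overlap for that gene in either strain. Both replicate 4 samples of polyQ35-YFP worms resembled each other over 9566 genes of mean value at least 10. Their deviations from the group means correlated at 0.570 with each other. With samples of another number under the other treatment they correlated at -0.469 to 0.00412. The count of calls is therefore also given without both replicate 4 samples.

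The first question was whether *anc-1* knockdown changed the RNA of the contractile apparatus. In wild-type worms 6 of the 10 filament genes rose, the M-line gene *unc-89*, the paramyosin gene *unc-15*, the actin gene *act-4*, the tropomyosin gene *lev-11*, the troponin I gene *unc-27* and the myosin gene *unc-54*, by 1.29-fold to 2.18-fold. No filament gene was called lower, as 6.13% of all genes were. A gene was called where limma, on log2(value + 1) over all genes of the strain, gave a Benjamini-Hochberg adjusted p below 0.05, and 7.5% of all 12061 genes were called higher in that comparison. In polyQ35-YFP worms 3 of the 10 rose, *unc-27*, *unc-54* and *unc-15*, by 1.45-fold to 1.73-fold, where 0.772% of all 12173 genes were called higher, and none was called lower (1.47% of all genes). Without both replicate 4 samples the number was also 3, against 2.67% of all genes. These 3 were the genes called in both strains. The *unc-54* reads of polyQ35-YFP worms may include those of the transgene, as set out below. With a single polyQ35-YFP sample left out, limma called 1 to 4 filament genes, *unc-27* each time, and 19 to 305 genes in all higher. Without limma's variance trend over expression, 2 filament genes (*unc-89* and *unc-15*) were called in wild-type worms, among 329 genes higher, and 0 in polyQ35-YFP worms, where 1 gene was called higher and the lowest adjusted p of the 10 was 0.0742 for *unc-27*.

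Direction was shared more widely than the calls. All 10 log2 fold changes lay above 0 in wild-type worms, with a median of 0.60 against 0.00 over all genes. In polyQ35-YFP worms 9 of 10 lay above 0, with a median of 0.39 against 0.03 over all genes, and the exception was *unc-22*. Every *anc-1* RNAi sample lay above every EV sample for 8 of the 10 genes in wild-type worms, which 15.8% of all genes did, and for 5 of the 10 in polyQ35-YFP worms, which 3.39% of all genes did. Neither edgeR nor DESeq2 called a filament gene lower in either strain, and none had a lower value at an unadjusted p below 0.05. By the series' design each repeat held both conditions, and samples of equal number in a strain were taken as 1 repeat. With the repeat as a block, limma called 7 filament genes higher in wild-type worms (8.81% of all genes). It called 5 higher in polyQ35-YFP worms (3.83% of all genes).

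**Figure D1:**
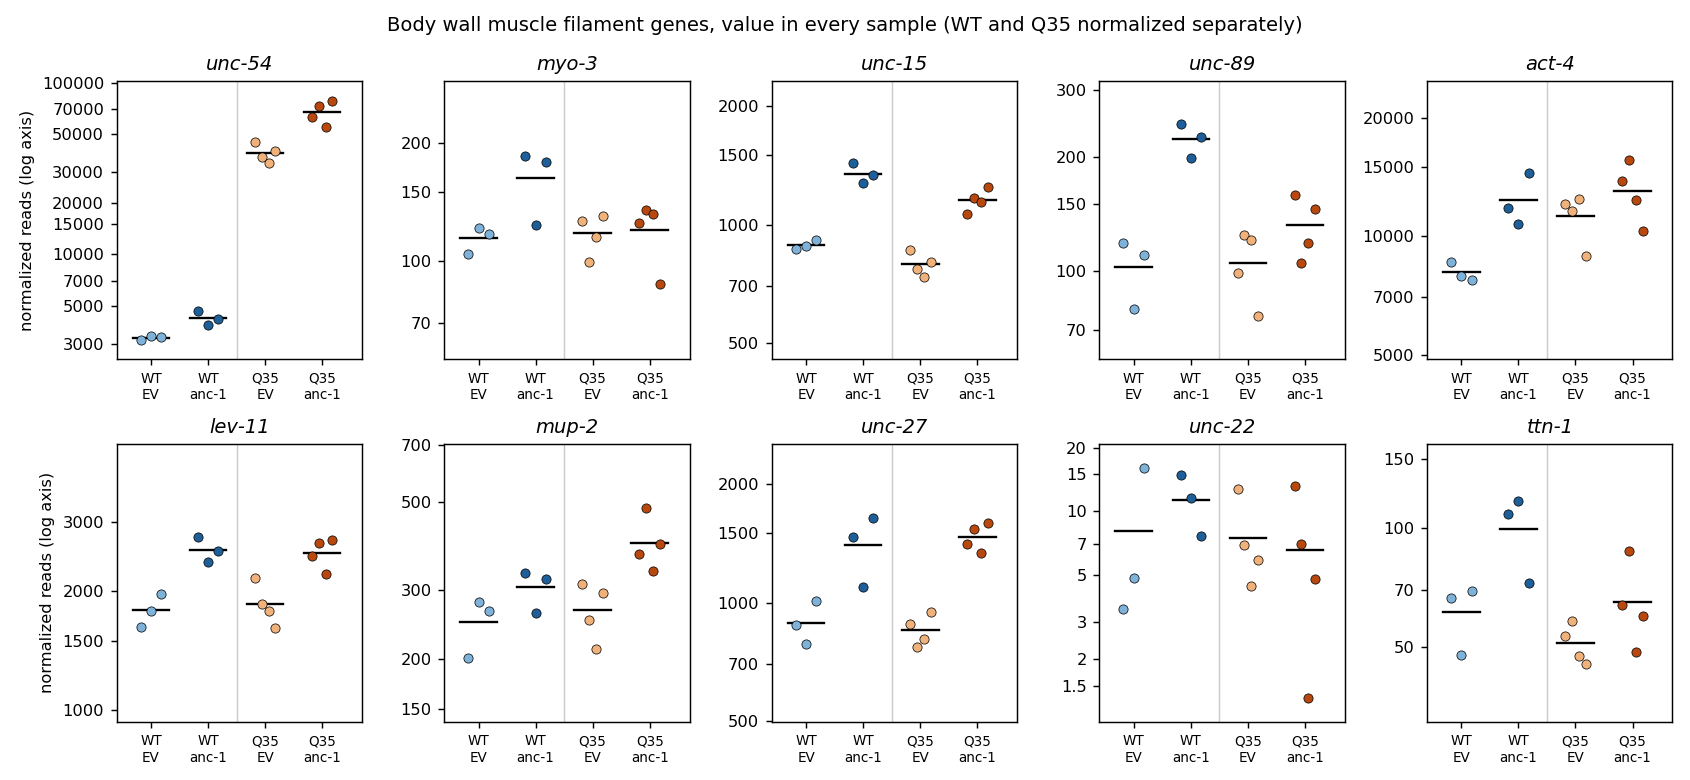
Normalized reads (vertical log axis, its range set for each gene) of the 10 filament genes in every sample of the 4 groups, WT for wild type and Q35 for polyQ35-YFP, with points for samples and bars for group means. The *anc-1* RNAi points lie above the EV points for 8 genes in wild-type worms and 5 in polyQ35-YFP worms. The strains were normalized separately, so heights should be compared within a strain.

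A pair of myosin heavy chains shares each thick filament of this muscle. The gene *unc-54* (WBGene00006789, WBcel235 chromosome I, 14855899 to 14863540, minus strand) codes the more abundant chain, which forms the filament arms. Its normalized values in N2 were 3179, 3326 and 3292 for EV replicates 1 to 3 and 4653, 3841 and 4162 for the same replicates of *anc-1* RNAi. All 3 treated samples were above all 3 untreated ones, and the log2 fold change was 0.37 (SE 0.09, limma adjusted p = 0.0140), or 1.29-fold. Without *anc-1* RNAi replicate 1, the highest of these samples, it was 0.29 and the call was lost (limma adjusted p = 0.0832).

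The polyQ35-YFP worms gave *unc-54* values of another order, with 44966, 36857, 33918 and 39805 for EV replicates 1 to 4 and 62906, 73564, 55458 and 78846 for the treated replicates. These reads may come from the native gene, the transgene or both, as set out below. The groups again did not overlap, and every repeat had the higher value under *anc-1* RNAi. The *unc-54* value rose by 0.79 on the log2 scale (SE 0.16, limma adjusted p = 0.0185), or 1.73-fold. It lay between 0.72 and 0.89 with each sample left out in turn, but the call was lost without EV replicate 2 (limma adjusted p = 0.0773), EV replicate 3 (0.0669), or *anc-1* RNAi replicate 1 (0.0617), 2 (0.0730) or 4 (0.0512). With the repeat as a block, the limma adjusted p was 0.00139.

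The other chain, which occupies the centre of the filament and starts its assembly, is coded by *myo-3* (WBGene00003515, chromosome V, 12226816 to 12234343, minus strand). In wild-type worms it measured 104.4, 122 and 118 under EV and 185, 123 and 179 under *anc-1* RNAi. The lowest treated sample, replicate 2, was level with the highest untreated one, and the log2 fold change of 0.48 (SE 0.18) was not called (limma adjusted p = 0.0859). Without that sample it was 0.66 and was called (limma adjusted p = 0.0205). In polyQ35-YFP worms *myo-3* was 126, 99.7, 115 and 131 under EV and 125, 135, 132 and 87.6 under *anc-1* RNAi, with the lowest value of all 8 in treated replicate 4. Its log2 fold change was 0.01 (SE 0.19, limma adjusted p = 0.987), against 0.79 for its partner *unc-54*, whose reads there may include the transgene. That of *myo-3* turned to -0.037 when reads were scaled to the library total and was 0.20 without both replicate 4 samples.

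Paramyosin, the rod protein at the core of the thick filament, is coded by *unc-15* (WBGene00006754, chromosome I, 7376604 to 7383197, minus strand). Its values were 865, 883 and 914 in the wild-type EV samples and 1430, 1276 and 1332 in the treated samples, 2 narrow ranges well apart. The rise was 0.60 on the log2 scale (SE 0.10, limma adjusted p = 0.000499), or 1.52-fold, and it stayed called with any sample left out. In polyQ35-YFP worms it was 862, 772, 737 and 802 under EV and 1065, 1167, 1143 and 1245 under *anc-1* RNAi. Again the ranges did not meet, and the log2 fold change was 0.54 (SE 0.12, limma adjusted p = 0.0346), or 1.45-fold. That call was lost without EV replicate 2 or 3 or any 1 of the 4 treated samples (limma adjusted p = 0.0809 to 0.131) and when reads were scaled to the library total in place of the size factors (0.0542), whereas the log2 fold change held between 0.50 and 0.58 over those omissions.

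The M-line gene *unc-89* (WBGene00006820, chromosome I, 4035744 to 4090961, plus strand) codes a giant protein related to obscurin. Its values in wild-type worms were 118, 79.4 and 110 under EV and 243, 199 and 226 under *anc-1* RNAi, so that the lowest treated sample exceeded the highest untreated one by a wide margin. This was a log2 fold change of 1.13 (SE 0.17, limma adjusted p = 0.000255), or 2.18-fold. In polyQ35-YFP worms the values were 98.5, 125, 121 and 76.3 under EV and 159, 105, 118 and 146 under *anc-1* RNAi. These ranges overlapped, only 2 of the 4 repeats had the higher value under *anc-1* RNAi, and the log2 fold change of 0.33 (SE 0.21) was not called (limma adjusted p = 0.497).

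Thin filaments are polymers of actin, of which *act-4* (WBGene00000066, chromosome X, 4960553 to 4964416, plus strand) codes a form used in body wall muscle and other tissues. Its values were 8616, 7912 and 7756 in the wild-type EV samples and 11806, 10764 and 14456 under *anc-1* RNAi. The groups were apart, and the log2 fold change was 0.60 (SE 0.10, limma adjusted p = 0.000716), or 1.51-fold. Other actin genes of the thin filament list did not rise there. Those were *act-1* (0.03, limma adjusted p = 0.879), *act-3* (-0.03, limma adjusted p = 0.884) and *act-2* (-0.34, limma adjusted p = 0.0111). In polyQ35-YFP worms *act-4* was 12104, 11602, 12461 and 8929 under EV and 13836, 15575, 12331 and 10306 under *anc-1* RNAi. Replicate 4 was the lowest of its group under both treatments, the ranges overlapped, and the log2 fold change of 0.20 (SE 0.16) was not called (limma adjusted p = 0.611). The actin genes are near-identical in their coding sequence, and how reads that match several of them were handled is not given in the sources used here.

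Tropomyosin lies along the actin polymer and is coded by *lev-11* (WBGene00002978, chromosome I, 14620759 to 14631254, minus strand). In wild-type worms it measured 1621, 1783 and 1970 under EV and 2740, 2368 and 2535 under *anc-1* RNAi, without overlap. It rose by 0.51 on the log2 scale (SE 0.10, limma adjusted p = 0.00233), or 1.42-fold. In polyQ35-YFP worms the values were 2157, 1861, 1785 and 1615 under EV and 2461, 2647, 2216 and 2695 under *anc-1* RNAi. Here too all treated samples lay above all untreated ones. The log2 fold change of 0.44 (SE 0.13) was not called (limma adjusted p = 0.104), but it was called with the repeat as a block (limma adjusted p = 0.0262) and by DESeq2 (adjusted p = 0.0364). The block on reads scaled to the library total lost that call (limma adjusted p = 0.0595).

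Troponin sets the calcium response of the thin filament, and its T subunit, which binds tropomyosin, is coded in this muscle by *mup-2* (WBGene00003495, chromosome X, 6408464 to 6410359, minus strand). The wild-type values were 202, 279 and 265 under EV and 332, 263 and 320 under *anc-1* RNAi. The groups overlapped through treated replicate 2, and the log2 fold change of 0.30 (SE 0.15) was not called (limma adjusted p = 0.209). In polyQ35-YFP worms *mup-2* was 311, 252, 213 and 294 under EV and 369, 485, 334 and 392 under *anc-1* RNAi, without overlap. The log2 fold change of 0.56 (SE 0.17) was not called (limma adjusted p = 0.105), but it was with the repeat as a block (limma adjusted p = 0.0203), by DESeq2 (adjusted p = 0.0384) and without EV replicate 4 (limma adjusted p = 0.0395).

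The inhibitory subunit, troponin I, is coded by *unc-27* (WBGene00006764, chromosome X, 8789454 to 8790621, plus strand). Wild-type values were 879, 784 and 1007 under EV and 1469.45, 1096 and 1636 under *anc-1* RNAi. The groups did not overlap, and the log2 fold change was 0.64 (SE 0.14, limma adjusted p = 0.00385), or 1.56-fold. In polyQ35-YFP worms the values were 881, 772, 811 and 945 under EV and 1408, 1542, 1334 and 1592 under *anc-1* RNAi. This was the clearest separation in that strain, with a log2 fold change of 0.79 (SE 0.13, limma adjusted p = 0.00712), or 1.72-fold, and *unc-27* was the filament gene that stayed called with any of the 8 samples left out (limma adjusted p at most 0.0390).

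The remaining genes code giant proteins of the titin family. Twitchin, a kinase along the thick filament whose loss makes the worm twitch, is coded by *unc-22* (WBGene00006759, chromosome IV, 11972708 to 12011007, minus strand). It was barely detected at this depth, with 3 to 15 reads in the wild-type samples and 1 to 14 in the polyQ35-YFP samples. Its normalized values were 3.44, 4.85 and 16.04 under EV and 14.8, 11.5 and 7.66 with *anc-1* RNAi for N2, and ranged from 4.43 to 12.8 and from 1.32 to 13.2 in polyQ35-YFP worms. A change could not be told at these counts (log2 fold change 0.65, SE 0.51, limma adjusted p = 0.447 and -0.36, SE 0.54, limma adjusted p = 0.817).

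The titin-related *ttn-1* (WBGene00006436, chromosome V, 6120909 to 6202626, minus strand) was measured at 66.5, 47.9 and 69.5 in the wild-type EV samples and at 109, 117 and 72.7 under *anc-1* RNAi. The treated samples lay above the untreated ones, by a small margin for replicate 3. The log2 fold change of 0.68 (SE 0.22) fell just short of the call (limma adjusted p = 0.0517). It was called with the repeat as a block (limma adjusted p = 0.0421), by edgeR (adjusted p = 0.0284), by DESeq2 (adjusted p = 0.0423) and without treated replicate 3 (limma adjusted p = 0.0176). In polyQ35-YFP worms *ttn-1* was 53.3, 58.3, 47.6 and 45.3 under EV and 63.9, 87.4, 48.7 and 59.97 under *anc-1* RNAi. All 4 repeats had the higher value under *anc-1* RNAi, but the ranges overlapped and the log2 fold change of 0.32 (SE 0.23) was not called (limma adjusted p = 0.565).

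Among the 10, *act-4* overlaps the coding gene *M03F4.6* on the opposite strand, *unc-89* overlaps *clec-89*, *ttn-1* overlaps *exp-2*, and *unc-22* overlaps *ZK829.9* as well as *ZK617.26* on its own strand. Whether the counting used strand is not given in the sources used here, so reads of these pairs cannot be told apart with certainty.

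**Figure D2:**
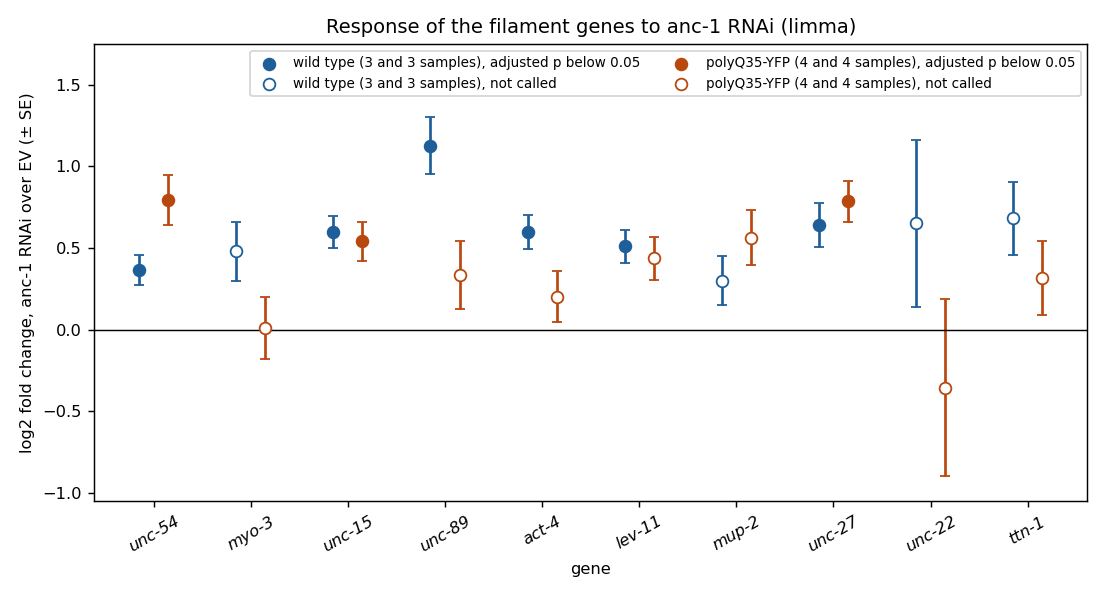
Log2 fold change, *anc-1* RNAi over EV, of each filament gene (vertical axis, with limma's standard error as bars) in wild-type worms (3 and 3 samples) and polyQ35-YFP worms (4 and 4 samples), filled where the adjusted p was below 0.05. In wild-type worms all 10 points lie above 0 and 6 are filled; in polyQ35-YFP worms 9 lie above 0 and 3 are filled.

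The next question was whether the response differed between the strains. The log2 fold change was larger in wild-type worms for 7 of the 10 genes and larger in polyQ35-YFP worms for *unc-54*, *mup-2* and *unc-27*. None of these differences was called in the test of the difference itself, the interaction of strain and treatment over the 11751 genes listed for both strains, in which 0.00851% of all genes (1 gene) were called. Neither edgeR (0.00851% of all genes), DESeq2 (0.017%), the fit with the repeat as a block (0.0511%) nor the fit without both replicate 4 samples (0.111%) called a filament gene. At an unadjusted p below 0.05 there were 2, where 3.46% of all genes were. The first was *unc-89*, whose response was 0.79 smaller in polyQ35-YFP worms on the log2 scale (difference -0.79, SE 0.29, limma adjusted p = 0.999). The second was *unc-54*, whose response was larger there (difference 0.43, SE 0.19, limma adjusted p = 0.999). That *unc-54* response may include transgene reads. For *unc-15*, *lev-11* and *unc-27*, the differences were -0.06 (SE 0.15), -0.07 (SE 0.17) and 0.14 (SE 0.20).

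The level of *unc-54*, by contrast, was far apart between the strains. It took 0.0511% ± 0.00208 (SD, n = 3) of the reads on listed genes in wild-type EV samples. In the treated ones it took 0.0664% ± 0.00673 (SD, n = 3). In polyQ35-YFP worms it took 0.534% ± 0.0830 (SD, n = 4) under EV and 0.895% ± 0.126 (SD, n = 4) under *anc-1* RNAi. The highest of these treated samples gave it 1.01% of its reads on listed genes. The highest wild-type sample was at 0.0733% and the lowest polyQ35-YFP sample at 0.477%.

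Since the strains were normalized separately, *unc-54* was set against *myo-3*, the other myosin of the same filaments, within each sample. The log2 ratio of *unc-54* to *myo-3* was 4.76 to 4.92 in the untreated and 4.53 to 4.95 in the treated wild-type samples, against 8.19 to 8.52 and 8.71 to 9.80 in the polyQ35-YFP samples. The strains differed by 3.98 on the log2 scale, or 15.8-fold (exact permutation test within treatments, two-sided, p = 0.000816, the smallest that these 14 samples allow). The ratio was 11.5-fold higher in polyQ35-YFP worms under EV and 21.5-fold higher with *anc-1* RNAi. Against *unc-15* in place of *myo-3* the difference was 3.97, against the sum of the other 9 genes it was 3.603, and without both replicate 4 samples of polyQ35-YFP worms it was 3.89 (exact permutation p = 0.00500).

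None of the other 8 genes came near such a shift. Their ratios to *myo-3* differed between the strains by -0.24 (*unc-22*) to 0.47 (*act-4*) on the log2 scale, averaged over the treatments, with *unc-15* at 0.01 and *lev-11* and *unc-27* at 0.21 each. For *mup-2* the difference was 0.07 between the EV groups and 0.80 (1.74-fold) between the treated groups, and for *unc-27* it was -0.10 and 0.52. The transgene of the polyQ35-YFP strain is driven by the *unc-54* promoter. If its transcript ends in *unc-54* sequence, the counting at 3′ ends would give its reads to *unc-54*, but its 3′ end is not given in the sources used here, and the share of such reads was not tested. The *unc-54* values of this strain can therefore be read as the native gene, the transgene or both. Strain, transgene and any batch of the strain cannot be told apart in this design.

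Within the polyQ35-YFP strain, the ratio of *unc-54* to *myo-3* averaged 8.35 ± 0.16 (SD, n = 4) under EV and 9.14 ± 0.47 (SD, n = 4) under *anc-1* RNAi, and the highest single ratio, 9.80, was that of treated replicate 4, in which *myo-3* was lowest. The ratios of *unc-27*, *unc-15* and *mup-2* to *myo-3* were also apart there, and those of the other genes overlapped. For *unc-27* the ratio was 2.79 to 2.94 for EV and 3.33 to 4.17 for the treated samples. It was 2.61 to 2.94 and 3.08 to 3.81 for *unc-15*, and 0.879 to 1.329 and 1.338 to 2.15 for *mup-2*. In wild-type worms the ratio of *unc-54* to *myo-3* averaged 4.82 ± 0.08 (SD, n = 3) and 4.71 ± 0.21 (SD, n = 3), and the groups overlapped.

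**Figure D3:**
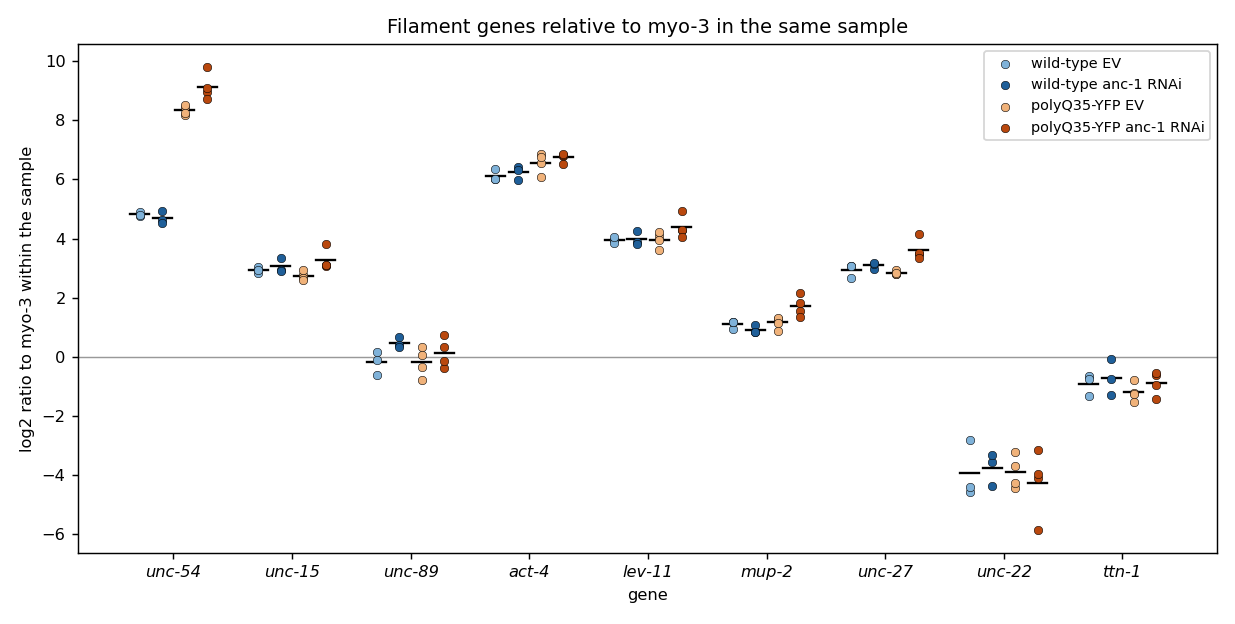
Log2 ratio of 9 filament genes to *myo-3* within each sample (vertical axis), with points for samples and bars for group means. For *unc-54* the polyQ35-YFP samples (8.19 to 9.80) lie far above the wild-type samples (4.53 to 4.95), whereas the means of the other 8 genes differ between the strains by at most 0.80 at either treatment (*mup-2*, *anc-1* RNAi).

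The 10 genes also varied among samples of one group, though not as a single block. Over the 14 samples, the deviation of each gene from its group mean on the log2 scale was set against the mean deviation of the other 9. The correlation was 0.78 for *lev-11*, 0.65 for *unc-22*, 0.57 for *unc-54* and 0.54 for *mup-2*, and it was 0.19 for *act-4*, 0.12 for *myo-3* and 0.04 for *unc-89*. With *unc-22* left out of the mean, *lev-11* was at 0.74, *unc-54* at 0.57 and *mup-2* at 0.49, *act-4* at 0.26, *myo-3* at 0.15 and *unc-89* at -0.11, and *ttn-1* went from 0.41 to 0.16. Of 5188 other genes with a mean value of at least 100 in both strains, those whose deviations were most like that mean were *nduo-5* (0.92), a mitochondrial gene for a subunit of respiratory complex I, *test-1* (0.84), *Y38E10A.14* (0.82), *cnc-8* (0.81) and *alh-9* (0.81). These correlations share depth and library within each sample and are given as a description. Without both replicate 4 samples of polyQ35-YFP worms they were 0.93, 0.88, 0.84, 0.90 and 0.85. The mean includes *unc-22*, whose few reads gave it the widest deviations. Against the mean of the other 9 genes the correlations were 0.91, 0.82, 0.79, 0.83 and 0.78, and *nduo-5* ranked first in both, whereas the other 4 then ranked between 14 and 37.

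Other genes of the contractile apparatus were described for comparison. Of 10 thick filament and M-line partners, 2 rose in wild-type worms, both myosin light chain genes, *mlc-3* (log2 fold change 0.58, limma adjusted p = 0.00404) and *mlc-1* (0.70, limma adjusted p = 0.00839), and none fell. Of 16 thin filament partners, 3 rose, the troponin T gene *tnt-2* (0.91, limma adjusted p = 0.000219), the actin-bundling gene *unc-87* (0.59, limma adjusted p = 0.00811) and the troponin C gene *pat-10* (0.66, limma adjusted p = 0.0131), while the actin gene *act-2* fell (-0.34, limma adjusted p = 0.0111). The median log2 fold change was 0.35 over the thick filament partners and 0.02 over the thin filament partners, against 0.60 over the 10 filament genes. With the repeat as a block, 4 thick filament partners were called higher and 1 lower. Over all genes 7.5% were called higher and 6.13% lower, or 8.81% and 7.44% with the block, so the 1 thin filament partner of 16 that fell is near the share of all genes.

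At the dense bodies and other attachments, 3 of 16 genes rose in wild-type worms and none fell. These were *dim-1* (0.61, limma adjusted p = 0.00248), the alpha-actinin gene *atn-1* (0.64, limma adjusted p = 0.0139) and the integrin alpha gene *pat-2* (0.87, limma adjusted p = 0.00874), with a list median of 0.22, and the block gave 4, beside the same 7.5% and 8.81% of all genes. Of 16 measured genes of excitation and calcium handling, none was called by limma, edgeR or DESeq2, and the median was 0.21. At an unadjusted p below 0.05 there was 1 higher and 1 lower, a smaller share than over all genes (14.5% higher and 13.2% lower). The 2 muscle transcription factor genes measured, *unc-120* and *hnd-1*, were not called by any of these tools, and 1 was higher at an unadjusted p below 0.05.

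In polyQ35-YFP worms *tnt-2* was the partner gene that rose (0.84, limma adjusted p = 0.0170), and no gene of the other muscle lists was called by limma. At an unadjusted p below 0.05, 4 thick filament partners, 6 thin filament partners, 1 attachment gene and 1 transcription factor gene were higher, and 1 excitation gene was lower, where 7.44% of all genes were higher and 8.08% lower. The values of *mlc-1* (0.66, limma adjusted p = 0.0701), *mlc-3* (0.56, limma adjusted p = 0.0654), *dim-1* (0.51, limma adjusted p = 0.0621) and *unc-87* (0.52, limma adjusted p = 0.101) lay within 0.10 of those of wild-type worms. The other partner genes called in N2 had values nearer 0 here, *pat-10* 0.50 (limma adjusted p = 0.230), *atn-1* 0.27 (limma adjusted p = 0.500), *pat-2* 0.34 (limma adjusted p = 0.543) and *act-2* -0.23 (limma adjusted p = 0.397). None of these 8 genes was called in the test of the difference between the strains. With the repeat as a block limma called 2 thick filament partners, 3 thin filament partners and 1 attachment gene higher and 1 excitation gene lower, beside 3.83% of all genes higher and 4.3% lower, and the single genes among 16 are near these shares. DESeq2 called 2, 2 and 1 higher and 1 lower (1.64% of all genes higher and 3.24% lower), and edgeR called 1 thin filament partner higher (0.657% of all genes).

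Myosins and troponins of other cells did not share one direction. The 9 non-muscle actomyosin genes, which serve cell division and cell shape, had a median log2 fold change of -0.07 in N2 and of 0.03 in AM140. None of them was called in either strain by limma, edgeR or DESeq2, and at an unadjusted p below 0.05 there was 1 higher and 1 lower in wild-type worms and none in polyQ35-YFP worms. Of 7 pharyngeal muscle genes, *tni-4*, the troponin I gene of the pharynx, fell in wild-type worms (-0.58, limma adjusted p = 0.00379), where 6.13% of all genes were called lower. In that strain 5 of the 7 lay above 0, and at an unadjusted p below 0.05 there were 2 higher and 1 lower. The median over these 7 was 0.65 there and 0.10 in polyQ35-YFP worms.

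**Figure D4:**
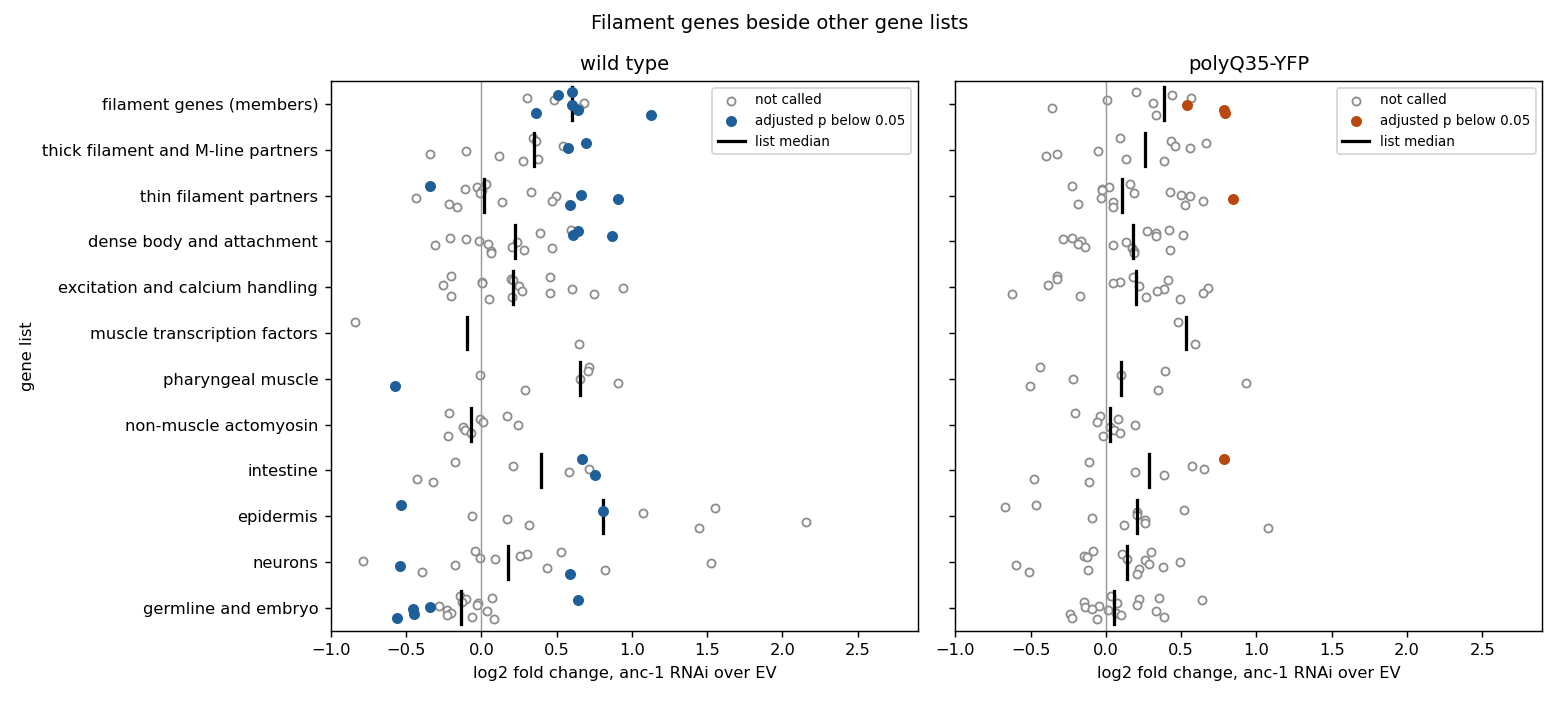
Log2 fold change, *anc-1* RNAi over EV, of single genes (points) in the filament list and 11 other lists, for wild-type worms (left) and polyQ35-YFP worms (right), filled where the limma adjusted p was below 0.05, with list medians as bars. The median of the filament genes is 0.60 on the left and 0.39 on the right, and that of the non-muscle actomyosin genes is -0.07 and 0.03. The epidermal (0.81) and pharyngeal (0.65) medians lie above that of the filament genes on the left, and at 0.21 and 0.10 on the right they lie below it. On the left both medians depend on genes of low value.

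Marker lists of other cell types also held genes that were called in wild-type worms. Of 8 intestinal genes, *ifb-2* (0.76, limma adjusted p = 0.000979) and *act-5* (0.67, limma adjusted p = 0.00199) rose, and the summed value of the list went from 3253 to 3531 with EV and from 3368 to 4538 with *anc-1* RNAi. Of 9 epidermal genes, *dpy-7* rose (0.81, limma adjusted p = 0.000141) and *col-19* fell (-0.53, limma adjusted p = 0.0459), and the sum was 2791 to 3355 against 3562 to 3742. Of 14 neuronal genes *unc-64* rose (0.59, limma adjusted p = 0.0234) and *unc-119* fell (-0.54, limma adjusted p = 0.00813), and the sums overlapped at 9830 to 11410 and 10817 to 11611. These counts of 2 in 8, 9 and 14 genes stand beside 7.5% of all genes called higher and 6.13% called lower. Those of the epidermis and the neurons, 1 higher and 1 lower each, are near these shares. The list medians were 0.81 for the epidermis (7 of 9 genes above 0), 0.40 for the intestine and 0.17 for the neurons. That of the epidermis thus lay above the 0.60 of the filament genes, but through genes near the floor. The epidermal genes above *dpy-7* were *rol-6*, *dpy-5*, *wrt-2* and *elt-3*, with EV means of 0.36, 1.91, 2.97 and 7.12. The better measured *vab-10*, *mup-4*, *lin-26* and *col-19* were at 0.32, 0.17, -0.06 and -0.53. With the repeat as a block, 2 epidermal genes were called higher in place of 1.

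Of 18 germline and embryo genes, *glh-1* rose (0.64, limma adjusted p = 0.000365) and 4 fell, *spn-4* (-0.56), *pos-1* (-0.45), *oma-1* (-0.45) and *nos-2* (-0.34), with limma adjusted p from 0.00198 to 0.0205. Over all genes 7.5% were called higher and 6.13% lower. The sum over the 18 lay at 99658 to 117070 with EV and at 81185 to 96109 with *anc-1* RNAi, so the treated wild-type worms had less of this RNA in every sample. The 10 filament genes summed to 15220 to 15654 and to 20058 to 24926 in the same samples. The part of such shifts between tissues in the rise of the filament genes was not tested.

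In polyQ35-YFP worms the germline and embryo sums overlapped, at 88670 to 147653 with EV and 94225 to 125332 with *anc-1* RNAi, and none of the 18 genes was called by limma, edgeR or DESeq2 (1 was higher and none lower at an unadjusted p below 0.05). The intestinal actin gene *act-5* rose (0.78, limma adjusted p = 0.0158), where 0.772% of all genes were called higher. No epidermal, neuronal or pharyngeal gene was called by these tools, with 1 lower in each list and 1 pharyngeal gene higher at an unadjusted p below 0.05. Over all genes 7.44% were higher and 8.08% lower at that p. With the repeat as a block limma called 1 neuronal gene lower, 1 pharyngeal gene higher and 1 lower, and 1 germline and embryo gene higher (3 of the 18 at an unadjusted p below 0.05). Over all genes that fit called 3.83% higher and 4.3% lower, so single genes among 15 or 18 are near those shares.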

How the data were processed

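RNA of 14 samples of whole worms was sequenced with CEL-Seq2. Per the study's methods, the authors trimmed reads with cutadapt 1.12, aligned them to WBcel235 with TopHat2 2.1.1, counted reads per protein-coding gene with HTSeq 0.6.1 without molecular identifiers (so PCR copies count separately), discarded genes of mean count under 2 and normalized with DESeq2 1.22.2. The deposited signal values are counts divided by the size factor of each sample, in a table per strain (12061 genes for wild type, 12173 for polyQ35-YFP). The log2 fold changes, errors, scores (Wald statistics), p-values and means that the authors deposited were not used. Dividing by the value of 1 read made 100% of values whole reads within 0.01.

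Each strain was fitted alone with limma 3.58.1 (R 4.3.3) on log2(value + 1), with empirical Bayes moderation, a variance trend and no replicate term, and p was adjusted over all genes by Benjamini-Hochberg. The strain difference was the interaction over the 11751 genes of both tables. The exact permutation test exchanged strain labels within treatments. Alternatives were pseudocounts of 0.5 and 5, a mean value of at least 10, reads scaled to the library total, no variance trend, edgeR 4.0.16 and DESeq2 1.42.0 on recovered reads, the replicate block, and each sample left out. The library total was the sum of a sample's reads on listed genes. The omission of both polyQ35-YFP replicate 4 samples and the block on reads scaled to the library total were chosen after seeing the data. The limma fit within a strain was tested on simulated counts with known changes, and the permutation test on made-up values. The interaction, the block, edgeR and DESeq2 were not tested in this way.

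The members and gene lists were chosen with earlier results of these data known. Genes named are the 10 filament genes, *anc-1*, of each other list the called genes (at most 5 per strain), and the 5 genes most like the members in deviation. The muscle partner genes called in wild type were also given for polyQ35-YFP worms. Listed genes without a value (5 of excitation, 1 transcription factor, 1 pharyngeal, and *bli-1* and *unc-31* in wild type) were not analysed here. By the series' design both conditions belonged to every repeat, so equal numbers in a strain were taken as pairs. Deviations of equal numbers correlated at 0.0491, 0.0806 and 0.0740 in wild-type and at 0.215, 0.0949, 0.122 and 0.570 in polyQ35-YFP worms. Unlike numbers correlated at -0.108 to 0.0353 in wild-type and at -0.469 to 0.271 in polyQ35-YFP worms. In the latter, EV replicates 1 and 3 were each more like *anc-1* RNAi replicate 2 (0.271 and 0.146) than their own number. The study describes the repeats as independent, and the labels do not say what each repeat shares, so p-values measure the spread between these samples. No sequence was used here.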

Additional observations from a re-analysis of the deposited data

How the results depend on the processing

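With the replicate block, limma called 1063 genes higher in wild-type worms (905 without it), 7 of them filament genes, and 466 in polyQ35-YFP worms (94 without it), 5 of them filament genes; beyond *ttn-1* in wild-type and *lev-11* and *mup-2* in polyQ35-YFP worms, it changed no call of a filament gene. Without the variance trend, limma called 329 genes and 2 filament genes (*unc-89* and *unc-15*) higher in wild-type worms, and 1 gene and 0 filament genes in polyQ35-YFP worms, where *unc-27* had an adjusted p of 0.0742, *unc-54* of 0.0918 and *unc-15* of 0.121; by unadjusted p below 0.05 the trended fit had 5. In polyQ35-YFP worms 32 genes were called higher with reads scaled to the library total (2 filament genes) and 200 by DESeq2 (5 filament genes). Without both replicate 4 samples 325 were (3 filament genes), and with block and library-total scaling together 350 (4 filament genes, without *lev-11*). With 1 sample left out, 19 to 305 were called higher (1 to 4 filament genes). For the strain difference 0 genes were called with a pseudocount of 0.5, the filter, library-total scaling or no trend, 2 by DESeq2, 6 with the block, 13 without both replicate 4 samples, 7 with block and library-total scaling, and 0 to 6 with one sample left out. Signs turned for *myo-3* in polyQ35-YFP worms with library-total scaling (-0.037, also with the block) and with one sample left out (-0.068 to 0.15), for *unc-22* there without *anc-1* RNAi replicate 3 (0.12, range over omissions -0.75 to 0.12), and in the strain difference for *lev-11* without polyQ35-YFP EV replicate 1 (0.0021, range -0.14 to 0.0021) and *unc-27* without wild-type *anc-1* RNAi replicate 2 (-0.022, range -0.022 to 0.27). The causes were not tested. The difference in the *unc-54* to *myo-3* ratio stayed between 3.603 and 4.05 under every alternative run. Depth limits *unc-22*, with 15 reads or fewer in every sample.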
